A study of Homo sapiens with 2 samples.

Results

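The regions described are the MYC peaks of human chromosome 19, chosen as every peak of the authors' list whose chromosome is 19. They number 1047 of 17659 peaks, 5.93% of the list. MYC was immunoprecipitated in 1 ChIP-seq library and compared with 1 library of input chromatin, and without replicates the values carry no replicate error and no p-value. Both libraries are from TET21 cells (SH-EP/TET21/N), a clone derived from SH-EP, a line of human neuroblastoma, with a MYCN transgene that doxycycline switches off. The cells ectopically expressed full-length MYC (WT-MYC), had been kept for 7 days in doxycycline at 1 µg/mL, and were crosslinked in 1% formaldehyde over 10 min. The input cells had the same treatment. The immunoprecipitation used 2 µg of a rabbit polyclonal antibody raised against MYC in the submitters' laboratory. Whether it tells the introduced MYC from the cell's own is not stated in the labels, and the results hold for a single clone. No other cell state was compared.

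MYC belongs to the helix-loop-helix leucine zipper proteins, pairs with MAX and binds E-box sequences, mostly at the promoters of active genes. It is known for raising the expression of genes for ribosome production, translation and metabolism, and MYC or MYCN drives many neuroblastomas. Chromosome 19 is the most gene-dense human chromosome. It also carries large clusters of C2H2 zinc-finger genes, most of them encoding KRAB repressors that silence transposable elements through TRIM28, and the bodies of many such genes are packed in H3K9me3 chromatin. Intervals of this kind lie on the short arm beside the centromere, at 20 to 24 Mb, and near the end of the long arm, at 52.5 to 59 Mb (GRCh37). They are called the pericentromeric and the distal zinc-finger cluster below. The distal interval also carries other families, among them leukocyte receptor genes. Individual peaks were not matched to genes, because no annotation or sequence of GRCh37 was used here. For the same reason no peak sequence is shown.

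The zinc-finger clusters differed widely in MYC peaks. The pericentromeric cluster held 2 peaks in 4 Mb, 0.50 per Mb (95% Poisson interval 0.061 to 1.81). The distal cluster held 105 peaks in 6.5 Mb, 16.2 per Mb (13.2 to 19.6). The rest of the chromosome, with the centromere kept in, held 940 peaks in 48.3 Mb, 19.5 per Mb (18.2 to 20.7). The rate of the pericentromeric cluster was thus 0.026 times that of the rest (95% interval of the ratio 0.0031 to 0.093). That of the distal cluster was 0.83 times (0.672 to 1.02), an interval that includes no difference. Without the 4 Mb of the centromeric interval (24 to 28 Mb) the rest reached 21.2 per Mb, and the ratio of the distal cluster was then 0.763 (0.617 to 0.934). With both clusters cut by 0.5 Mb at each end it was 0.779 (0.614 to 0.976). Both of these intervals lie below 1. The distal rate was 32.3 times the pericentromeric one (8.72 to 270.3). These intervals cover counting error within 1 library and treat peaks as independent, although neighbouring peaks crowd, so they may be too narrow.

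The arms differed in density outside the clusters. The short arm before the pericentromeric cluster held 530 peaks in 19.7 Mb, 26.9 per Mb (24.7 to 29.3), which is 50.6% of the chromosome's peaks on 33.5% of its span. The long arm from 28 to 52.5 Mb held 399 peaks in 24.5 Mb, 16.3 per Mb (14.73 to 17.96). Against this neighbour on the same arm the distal cluster had a ratio of 0.992 (0.792 to 1.23). The short arm exceeded the long arm 1.65 times (1.45 to 1.89). Both ratios depend on a sparse stretch of the long arm at 28 to 33 Mb, with 2.6 peaks per Mb, picked after its counts were seen. From 33 to 52.5 Mb, next to the distal cluster, the long arm held 19.8 per Mb (17.9 to 21.9). That is above the 16.2 (13.2 to 19.6) of the distal cluster, with overlapping intervals, and below the short arm. Even so, the distal cluster was denser than the 22 other chromosomes together, which held 5.77 per Mb, by 2.80 times (2.29 to 3.39).

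**Figure D1:**
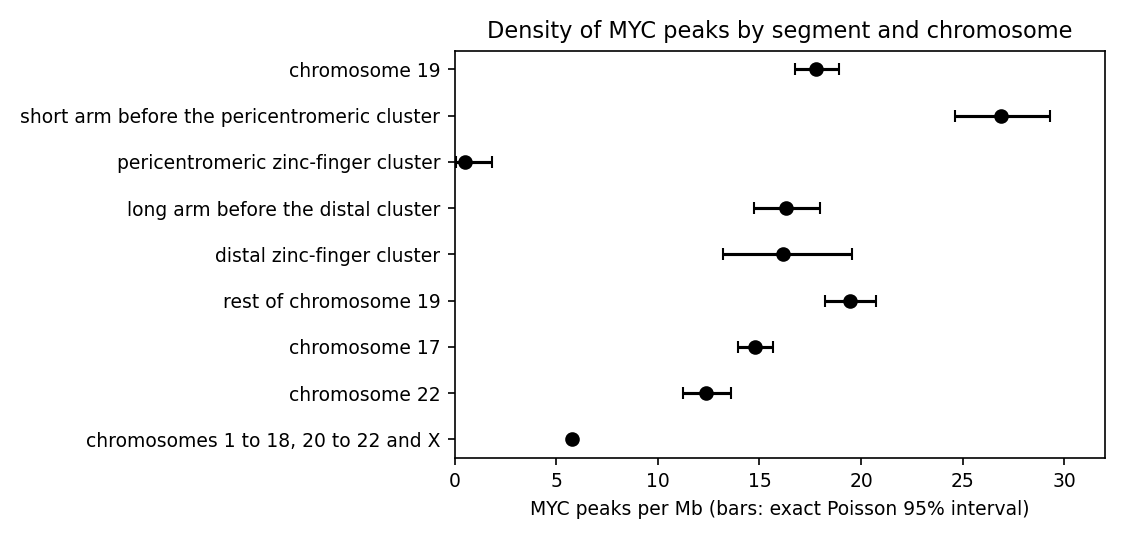
MYC peaks per Mb (horizontal axis) in segments of chromosome 19, on chromosomes 17 and 22 and on the other chromosomes together. Points are rates and bars are exact Poisson 95% intervals. The pericentromeric cluster sits at 0.50 per Mb, while the distal cluster at 16.2 overlaps the long arm before it at 16.3.

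Chromosome 19 as a whole held 17.8 peaks per Mb over the 58.8 Mb between its first and last peak. This was 1.20 times the rate of chromosome 17 (1.11 to 1.31), 1.44 times that of chromosome 22 (1.29 to 1.61) and 3.09 times that of all chromosomes but 19 (2.90 to 3.28). The background expected from the input under the peaks also differed between these chromosomes, as given below. Its part in these rates was not tested. Chromosome 19 had more windows of high density than chromosome 17, but its best window was not denser. In windows of 1 Mb, chromosome 19 had a median of 16.5 peaks (quartiles 6.75 and 25.25), chromosome 17 had 12 and chromosome 22 had 9.5. The median over all 2953 windows of chromosomes 1 to 22 and X was 4. Windows with 20 or more peaks made up 40% on chromosome 19 (24 of 60), 25.6% on chromosome 17 and 19.4% on chromosome 22, against 5.89% of all windows. The densest window of chromosome 19 held 61 peaks and that of chromosome 17 held 64.

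**Figure D2:**
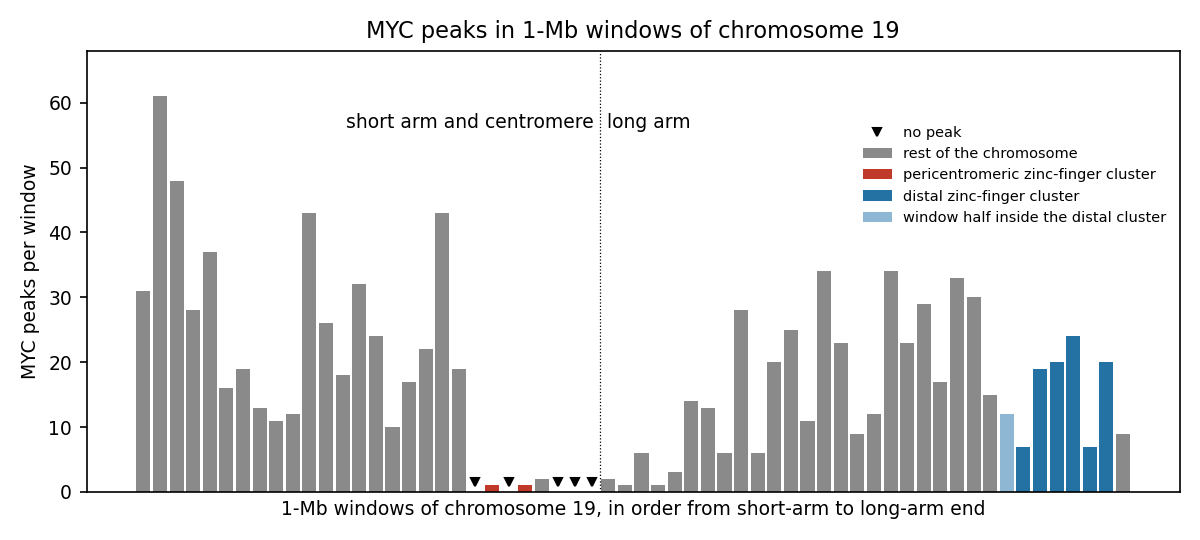
MYC peaks (vertical axis) in each 1-Mb window of chromosome 19, placed in order along the chromosome with the coordinates left off. Red and dark blue mark windows inside the zinc-finger clusters, pale blue a window only partly inside, and triangles the 5 windows with no peak. The first and last windows are only partly covered by the span of the peaks, and the 4 red windows hold at most 1 peak each, while the 6 dark blue ones hold 7 to 24.

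The 5 windows with the most peaks were all on the short arm, and together held 232 peaks, 22.2% of those on the chromosome. The window at 1 to 2 Mb had 61 peaks and ranked 2 among all windows of the list. The window at 2 to 3 Mb had 48 and ranked 6. The windows at 10 to 11 and 18 to 19 Mb had 43 each and shared rank 12, and that at 4 to 5 Mb had 37. The strongest peaks of the last pair of these, chr19:18682387-18682988 and chr19:4374597-4374983, had folds of 19.4 and 15.5, below those of the other 3 windows (26.7 to 30.6). Every one of the 20 short-arm windows held at least 10 peaks, with a median of 23. Density on this arm still varied on a small scale. The window at 12 to 13 Mb held 1 peak in its first 0.5 Mb and 17 in its second, whereas the first 0.5 Mb of the window at 1 to 2 Mb held 43. On the long arm the highest windows, 41 to 42 and 45 to 46 Mb, had 34 peaks each. The 24 whole windows of the long arm before the distal cluster ranged from 1 to 34, with a median of 14.5.

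No peak was called in 5 windows of the chromosome. Of these, 2 lay in the pericentromeric cluster (20 to 21 and 22 to 23 Mb) and 3 in the centromeric interval (25 to 28 Mb). How much of these windows reads can be mapped to was not examined. The lack of a called peak there, above all across the centromere, is therefore not a measured absence of MYC. The longest stretch without a peak, 4.07 Mb, ran from 24216729 to 28284111 across the centromere. The next, 2.25 Mb, lay inside the pericentromeric cluster between its peaks, from 21182964 to 23433363. A stretch of 1.295 Mb led into that cluster from the last peak of the short arm, which ended at 19887677. In all, 5 stretches were longer than 1 Mb, and none of them was in the distal cluster.

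Both peaks of the pericentromeric cluster lay below the chromosome's median fold of 6.51 and median −log10 p of 10.5. The one at chr19:23433363-23433581 had 9 ChIP fragments over its summit (Poisson interval 4.12 to 17.1) against a background of 0.684 fragments expected from the input, which gave a 5.94-fold enrichment with a −log10 p of 8.48. The other, at chr19:21182726-21182964, had 10 fragments (4.80 to 18.4) over 1.32, a 4.74-fold enrichment with a −log10 p of 6.80. They ranked 704 and 873 of 1047 by −log10 p. Just outside the limit at 24 Mb, a pair of peaks 256 bp apart, at chr19:24216083-24216282 and chr19:24216539-24216729, had folds of 6.90 and 5.94. The median fold over chromosomes 1 to 22 and X was 6.40. The list gives the input only under called peaks, so the input coverage of the rest of this interval was not analysed here.

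The typical peak of the distal cluster had a fold near that of the rest of the chromosome. The median fold was 6.71 in the cluster (quartiles 5.35 and 8.71), against 6.47 (5.22 and 8.86) in the rest, and the median pileup was 13 fragments against 12.5. Median width was 233 bp in the distal cluster and 231.5 bp in the rest, and the median background was 0.937 and 0.970 fragments. A fold of at least 10 was seen in 17 of 105 distal peaks (16.2%, Wilson 95% interval 10.4 to 24.4) and 169 of 940 in the rest (17.98%, 15.7 to 20.6). The whole list had 15.4%. No distal peak reached a fold of 20. Taken as at most 3 counts of 105, that 0 allows a share of up to 2.86% (the Wilson upper limit is 3.53%), for counting error only, and the share over the whole list was 1.43%, so 105 peaks are too few to show fewer very strong sites.

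The strongest distal peak, at chr19:56631648-56632096, had 36 fragments over a background of 1.03, an 18.2-fold enrichment with a −log10 p of 43.1. It ranked 29 on the chromosome and was the best of 3 peaks within 1386 bp. The next by significance were chr19:58897723-58898299 (fold 18.1), chr19:55972903-55973227 (18.4), chr19:56166444-56167227 (17.2) and chr19:55919117-55919644 (16.8). Their pileups were 30 to 34 fragments, and the Poisson intervals of all 5 counts overlap. The least significant distal peak, at chr19:55988027-55988168, had 7 fragments, a −log10 p of 4.15 and a fold of 3.45, and the lowest fold in the cluster was 3.36.

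Peaks in the distal cluster were unevenly spread, as they were on the arms outside it. Over 1-Mb windows, the variance of the counts divided by their mean was 3.30 in the cluster (6 windows). It was higher on the short arm, 7.30 (20 windows), and on the long arm before the cluster, 7.54 (24 windows). The long-arm windows include the sparse stretch at 28 to 33 Mb. Mean counts also differed, at 16.2 in the cluster, 26.5 on the short arm and 16.5 on the long arm. With 6 windows in the cluster, these values do not show that it was more even than the arms. Of the cluster's 13 windows of 0.5 Mb, 2 had no peak, at 55 to 55.5 and 57 to 57.5 Mb, and the median was 8. The window at 55.5 to 56 Mb held 20 peaks, those at 58.5 to 59 and 56 to 56.5 Mb held 15 and 14, and these 3 had 46.7% of the cluster's peaks. At 53 to 53.5 Mb there were 2 peaks. The stretches without a peak around the empty windows ran for 0.599 Mb (54975176 to 55574302) and 0.713 Mb (56989567 to 57703044). Over all neighbouring summits of the cluster the median distance was 19.6 kb, against 20.5 kb on the long arm before the cluster and 17.4 kb on the short arm. Peaks more than 100 kb from any other were 6 of 105 in the cluster, 9 of 399 on that long arm and 8 of 530 on the short arm. Their share was 2.39% on the whole chromosome and 12.8% on chromosomes 1 to 22 and X. Which of the distal peaks lie over zinc-finger genes and which over other families was not tested.

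**Figure D3:**
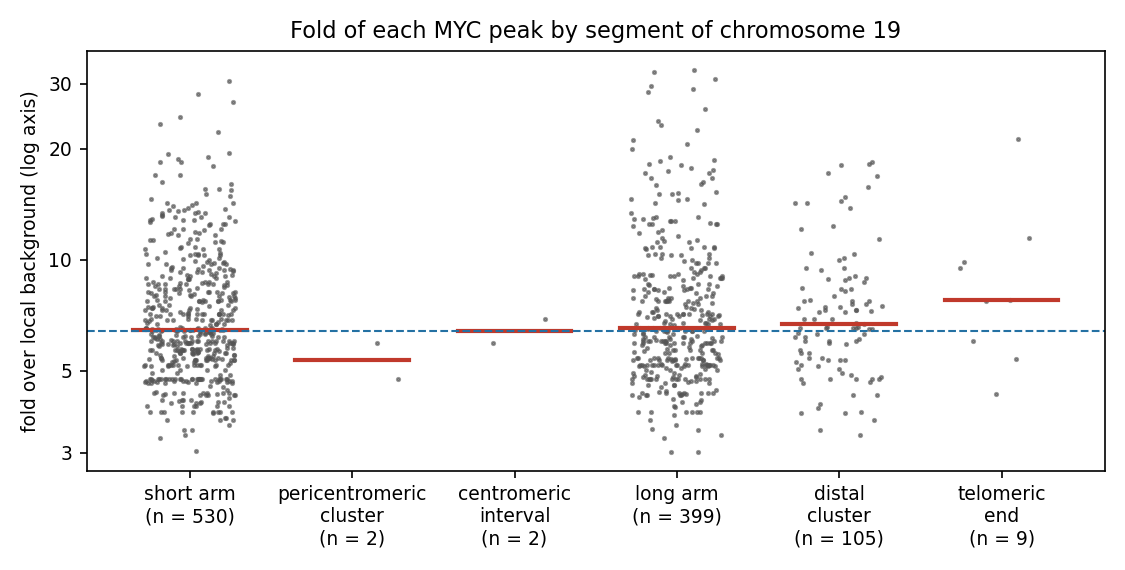
Fold over the local background (vertical log axis) of every MYC peak in 6 segments of chromosome 19. Each point is a peak, red bars are medians, and the dashed line is the median of the whole list. The distal cluster has the middle of its range level with both arms and ends at 18.4, below the highest peaks of the arms, while the pericentromeric cluster has 2 points.

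The strongest sites of the chromosome lay on both arms outside the clusters. Of the 10 with the highest −log10 p, 6 were on the long arm before the distal cluster and 4 on the short arm. The first, at chr19:1863901-1864486 in the densest window, had 70 fragments (54.6 to 88.4) over a background of 1.32, a 30.6-fold enrichment with a −log10 p of 93.9, rank 26 of the list. The highest fold, 32.7, belonged to chr19:36705867-36706317 with 59 fragments over 0.834. It was followed by chr19:39339807-39340289 with a fold of 32.3 and chr19:45582247-45582574 with 31.0. The other 6 were chr19:10216896-10217373, chr19:50180383-50181035, chr19:49999178-49999467, chr19:2783419-2783718, chr19:41168729-41169108 and chr19:10811991-10812293. Their folds ran from 23.3 to 29.5. The pileups of all 10 lay between 49 and 70 fragments with overlapping Poisson intervals, so the order by pileup is uncertain.

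Density and fold did not rise together along the chromosome. The short arm had more peaks. Of the 20 peaks with a fold of 20 or more, 6 were on the short arm, 13 on the long arm before the distal cluster and 1 beyond that cluster. Those 20 are 1.91% of the chromosome's peaks (1.24 to 2.93), near the 1.43% of the whole list. Their rate was 0.304 per Mb (0.112 to 0.663) on the short arm and 0.531 (0.283 to 0.907) on that part of the long arm, with overlapping intervals. At a fold of at least 10 the order was the other way, 4.52 per Mb (3.63 to 5.56) on the short arm and 3.18 (2.52 to 3.97) on the long arm. These intervals overlap too, and the long-arm rates include the sparse stretch at 28 to 33 Mb, so neither order is firm. A fold of at least 30 was seen in 1 short-arm and 3 long-arm peaks, 0.382% of the chromosome's against 0.215% of the list. Windows with 20 or more peaks had a median fold of 6.503 over 738 peaks, and the other windows 6.54 over 309. Over the 48 windows with at least 5 peaks, the number of peaks and the median fold had a Pearson r of −0.083 and a Spearman rho of −0.064. The windows share 1 library, and this is a description.

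The folds of chromosome 19 were near those of the comparison chromosomes, with a median of 6.51 against 6.47 on chromosome 17 and 6.46 on chromosome 22. A fold of at least 10 was seen in 17.8% of its peaks (15.6 to 20.2), 17.95% on chromosome 17 and 14.5% on chromosome 22, and in 15.4% of the whole list, which is just below the interval for chromosome 19. Among the 500 peaks of the list with the highest fold, 42 were on chromosome 19 (8.4%, 6.27 to 11.2), and among the 500 most significant 33 were (6.6%, 4.74 to 9.12), beside 5.93% of all peaks. The background differed as well. Its median was 0.965 fragments on chromosome 19, 1.32 on chromosome 17 and 1.03 on chromosome 22. The lowest background, which the caller sets for the whole genome, lay under 14.0% of the peaks of chromosome 19, 5.01% on chromosome 17 and 18.01% on chromosome 22, against 9.98% on chromosomes 1 to 22 and X. The part of the background in the fold ranking was not tested.

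Peaks of chromosome 19 often had close neighbours. Another peak lay within 1 kb of 395 (37.7%, 34.8 to 40.7), against 32.8% of the whole list, 38.1% on chromosome 17 and 29.8% on chromosome 22. By segment the share was 35.5% on the short arm, 39.8% on the long arm before the distal cluster and 41.9% (32.9 to 51.5) in the distal cluster, with overlapping intervals. Only 25 peaks (2.39%) stood more than 100 kb from any other, against 12.8% on chromosomes 1 to 22 and X, a share that falls as density rises. Peaks up to 1 kb apart were joined into 831 regions, of which 652 were single peaks, 146 pairs and 33 larger. Chromosomes 1 to 22 and X had 14470 regions, of which 11863 were single peaks, 2149 pairs and 458 larger. Larger regions were 50 of 933 on chromosome 17 and 13 of 360 on chromosome 22. The largest on chromosome 19 by number of peaks, chr19:50093287-50095750, had 5 peaks in 2464 bp with a best fold of 7.63. Regions of 4 peaks lay at chr19:1248138-1251099 and chr19:4064811-4067426, with best folds of 9.76 and 7.76. Of the regions of 3, those at chr19:49999178-50000763 and chr19:10764199-10765768 had best folds of 29.0 and 22.1. Thus the regions with the most peaks did not hold the strongest ones.

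**Figure D4:**
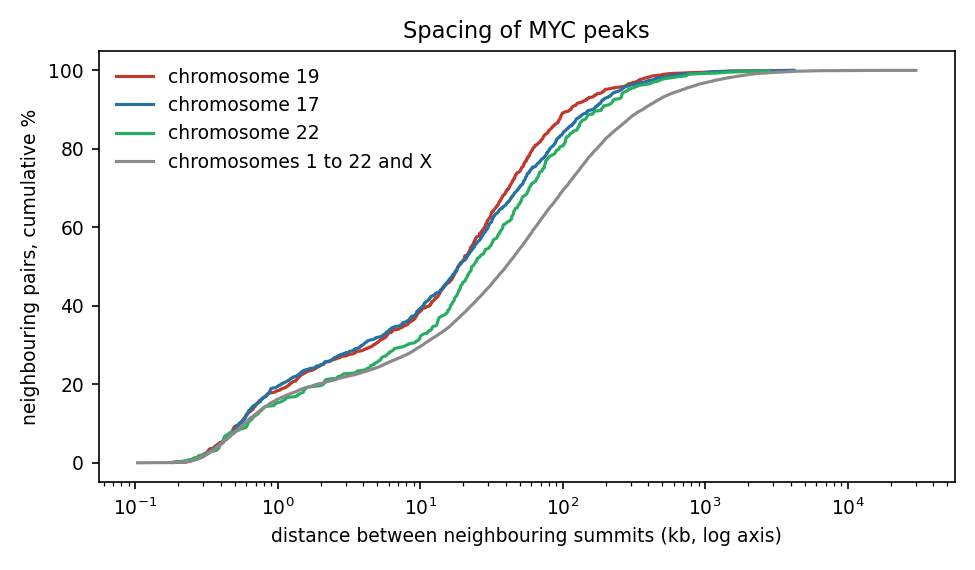
Cumulative share of neighbouring pairs (vertical axis, percent) by the distance between their summits (horizontal log axis, kb) on chromosome 19, chromosome 17, chromosome 22 and chromosomes 1 to 22 and X. The median distance was 18.7 kb on chromosome 19, 18.5 kb on chromosome 17, 23.3 kb on chromosome 22 and 40.1 kb over all.

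Peaks were wide on chromosome 19 about as often as elsewhere: 68 (6.49%, 5.16 to 8.15) exceeded 500 bp, against 6.82% of the list. The widest, at chr19:3557067-3558306, spanned 1240 bp with a fold of 12.5. The second, in the distal cluster at chr19:54704444-54705445, spanned 1002 bp with a fold of only 3.85, and its background of 2.64 fragments was above the cluster's median. The lowest fold of the chromosome, 3.02, was shared by a pair of long-arm peaks, chr19:45394042-45394216 and chr19:46117598-46117795, each with 10 fragments over 2.64. They also had the lowest −log10 p of the chromosome, 4.00494.

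Zinc-finger genes weighed heavily in the gene count of the chromosome. In the RefSeq table, 265 of the 1451 protein-coding genes of chromosome 19 (18.3%) have symbols that begin with ZNF, ZFP, ZSCAN, ZKSCAN, ZIK or ZIM, and they are 46.2% of the 573 such genes on chromosomes 1 to 22 and X. Over all coding genes the chromosome had 72.2 peaks per 100 genes (67.9 to 76.7), the third lowest of 23 chromosomes. With zinc-finger genes left out of the gene count it had 88.3 (83.0 to 93.8) and ranked 8 from the lowest. The same step moved the value over all 23 chromosomes from 88.3 to 90.9. The next largest rise was on chromosome 7, from 111.9 to 116.8. All peaks stayed in the numerator, those at zinc-finger genes too, so 88.3 is an upper value for the other genes. The relative rise on each chromosome was thus fixed by its share of zinc-finger genes, and it gives no result about MYC at those genes. The remaining lists of chromosome 19 genes were small: 31 leukocyte receptor genes, 22 CEACAM and PSG genes, 20 olfactory receptors, 15 kallikreins, 12 each of cytosolic ribosomal protein, SIGLEC and cytochrome P450 genes, 9 NLRP genes and 7 chorionic gonadotropin genes. How many of these have a peak was not tested.

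RefSeq promoter sequences (GRCh38.p14, 250 bases before to 50 after the gene start) were searched by gene symbol for the E-box CACGTG, which reads the same on both strands. They were not linked to peaks, which are on another build. It occurred in 10 of 229 promoters of zinc-finger genes of chromosome 19 (4.37%, Wilson interval 2.39 to 7.85) and in 84 of 956 of its other coding genes (8.79%, 7.15 to 10.8). Of all 15843 coding promoters 8.88% held it. The looser motif CANNTG, which includes CACGTG, was in 56.3% of the zinc-finger promoters, 62.6% of the others on the chromosome and 64.5% of all. Promoters were found for 86.4% of the zinc-finger and 80.6% of the other coding genes. A match describes the letters of this window and not a bound site.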

How the data were processed

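The authors' deposited list for the MYC ChIP library was used; no file of the input library was analysed here. Tools named in the submitters' processing notes, with no role or order, are MACS2 2.1.0, Picard 2.7.1, SAMtools 1.3, STAR 2.5.2a and bedtools, and the build is GRCh37. The rule by which the list was filtered is not given in the sources used here. The deposited columns are a score, the fold (a ratio over the local background), the −log10 p and −log10 q of each peak, and the summit. All are the peak caller's values for single peaks.

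A peak was placed by its summit. Coordinates are GRCh37 and 1-based. Pileup (ChIP fragments over the summit) and background were recovered from the deposited fold and −log10 p as the whole pileup whose Poisson tail gives that p. A pileup matched within 0.001 for 100% of peaks, and the procedure was tested on simulated data. Backgrounds within 0.0003 of 0.683 fragments were taken as the genome-wide floor. Rates have exact Poisson, ratios of rates exact conditional binomial, and shares Wilson 95% intervals. Sequenced fragments carried no molecular identifiers and may be copies of one molecule, so these cover counting error only. The depth of the libraries is otherwise unknown. A chromosome's span is that between its outermost peaks (on 19, 291317 to 59087341). Gene counts and promoters are from RefSeq (GRCh38.p14), by symbol and chromosome only.

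Named peaks are the 10 of the chromosome and up to 5 of each cluster with the highest −log10 p, and the strongest of each of the 5 densest windows. The weakest peak of each cluster and of the long arm before the distal cluster, and regions with the most peaks, are named too. Other peaks (the widest, the highest fold, those at 24 Mb) were added after their values were seen. Members, gene lists and cluster limits were chosen with earlier results of these data known. Start-site, promoter and peak-motif results that had been planned were not computed, since they need GRCh37. Python 3.11.15, scipy 1.17.1, pandas 2.3.3 and numpy 2.4.6 were used.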

Additional observations from a re-analysis of the deposited data

How the results depend on the processing

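Of 58 alternative values for 22 results, 43 stayed, 15 moved and none reversed. Only a ratio whose main interval excludes 1 could count as reversed, which here was the pericentromeric ratio alone. Some values could not move. These were the cluster rates when only the rest was trimmed, and the pericentromeric medians, whose peaks have no neighbour within 1 kb. A rate, ratio or median was taken to stay within its 95% interval, and a count or a summary over windows within 1.5 times. Keeping peaks at or above the list's median −log10 p left 536 on the chromosome, 0 per Mb in the pericentromeric cluster (a ratio of 0 to the rest), 8.92 in the distal cluster and 9.90 in the rest. At or above the upper quartile 281 were left, with 0 (ratio 0), 4.15 and 5.26 per Mb. Both falls follow from using fewer peaks. Joining peaks within 1 kb gave 12.5 per Mb in the distal cluster and 15.5 in the rest. Widening the clusters by 0.5 Mb at both ends took in peaks of the short arm and the pair just past 24 Mb. This raised the pericentromeric cluster to 2.4 per Mb, 0.122 times the rest. The rest without 24 to 28 Mb had 21.2 per Mb. The distal ratio lay between 0.763 and 0.902 under all 7 alternatives, and its interval excluded 1 only for the rest without 24 to 28 Mb and for clusters cut by 0.5 Mb (0.779, 0.614 to 0.976), and the pericentromeric ratio between 0 and 0.122. Shifting the windows by 0.5 Mb raised the densest from 61 to 70 peaks, and windows of 0.5 Mb to 86 per Mb. No paired analysis was possible because each kind of library has 1 sample, and for the same reason no replicate could be left out. Alternatives for start sites, gene lists with peaks and E-boxes at summits were not run, since they need GRCh37.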

Other observations

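The first 5 Mb of the long arm after the centromere (28 to 33 Mb), a stretch picked after its counts were seen, held 13 MYC peaks, 2.6 per Mb (95% Poisson interval 1.38 to 4.45), against 19.8 per Mb (17.9 to 21.9) from 33 to 52.5 Mb. A fold of at least 10 was seen in 7 of 13 (53.8%, Wilson interval 29.1 to 76.8), against 71 of 386 (18.4%) on the long arm after it and 15.4% of the whole list. The strongest, at chr19:30432806-30433292, had 42 fragments over 1.32 and a fold of 18.5, with a second peak beside it at a fold of 11.6. Others were chr19:28284111-28284379 with a fold of 17.2 and chr19:30206038-30206496 with 14.5. Of the 13, 8 had another peak within 1 kb, so they are not separate sites throughout and the Wilson interval may be too narrow. The genome-wide background floor lay under 4 of the 13 (30.8%), against 12.7% on the long arm after them. Its part in these folds was not tested. At the other end of the arm, the last 87 kb of the peaks' span, after 59 Mb, held 9 peaks. The strongest, at chr19:59070769-59071290, had a fold of 21.3.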
